A study of Mus musculus with 12 samples.

Results

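Gata2, Gata3, Gata4, Gata6, Foxa1, Foxa2, Sox17, Neurod1, Neurog1 and Neurog2 are 10 genes of transcription factors that direct endoderm, trophoblast, blood and neuronal fates. They were chosen by name, with their overlap already known, and their RefSeq bodies (build GRCm38, the same sequence as mm10) with 50 kb on either side were intersected with a deposited list of 28210 H4K20me3 domains. They are 10 of the 21523 protein-coding genes placed on chromosomes 1 to 19 and X. The domains come from a ChIP-seq series in mouse embryonic stem (ES) cells of the line dTKO, genotype Suv39h1fl/fl; Suv39h2-/-; Setdb1fl/fl, which asks how H4K20me3 decays after H3K9 methyltransferases are lost. Every one of the 12 libraries carries that genotype and the label + auxin + dTAG13, for 0, 12, 24 or 48 h, in 3 replicates per time (100 μg/ml of auxin, dTAG13 at 0.5 μM). Auxin and dTAG13 are ligands that trigger the breakdown of proteins fused to a matching degron, and the 0 h samples are the baseline. The list names no sample or time and holds no score, so no level, replicate error, library depth or change over time can be given for any gene, and no test was made. Each value below is a position, a width or a distance in that 1 list.

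H4K20me3, trimethylation of lysine 20 of histone H4, is laid down on heterochromatin largely by the Suv420h enzymes, which are brought in by HP1 proteins bound to H3K9me3. It is known best from repeats around centromeres, from telomeres and from retrotransposons. In ES cells, genes of lineage factors are mostly silent and are classically held in a bivalent state, with H3K4me3 and the Polycomb mark H3K27me3 over CpG-rich promoters. GATA factors are zinc finger proteins that bind GATA motifs. Foxa1 and Foxa2 are forkhead factors that can bind their sites in closed chromatin, Sox17 is an HMG-box factor of endoderm, and Neurod1, Neurog1 and Neurog2 are basic helix-loop-helix (bHLH) factors that promote neuronal differentiation.

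The promoter windows at hand lay outside the domains, and some are shown for that reason. None was at hand for Gata4, Gata6 or Sox17. RefSeq promoter windows of build GRCm38.p6, which reach from 250 bases before to 50 bases after a transcript start, were at hand for 7 of the 10 genes, with 10 windows in all. No window shared a base with a domain. Among the 21045 such windows of protein-coding genes, 291 (1.38%) did, so 0 of 10 is near what the whole set gives. The windows of the 3 genes with a domain further inside the body come first, followed by 2 bHLH genes without one. Each runs 5′ to 3′ on the gene's strand, with CpG sites, the letters CG, in capitals. CG reads the same on both strands, and 95.5% of all windows hold at least 1.
Gata2, downstream start, chr6:88198414-88198713, plus strand: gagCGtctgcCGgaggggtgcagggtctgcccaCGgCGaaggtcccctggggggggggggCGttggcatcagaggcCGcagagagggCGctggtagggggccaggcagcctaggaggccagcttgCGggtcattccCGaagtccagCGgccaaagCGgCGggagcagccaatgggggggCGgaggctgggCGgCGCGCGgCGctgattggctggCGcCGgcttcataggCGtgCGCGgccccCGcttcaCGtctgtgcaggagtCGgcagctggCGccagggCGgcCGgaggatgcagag
Neurod1, chr2:79456587-79456886, minus strand: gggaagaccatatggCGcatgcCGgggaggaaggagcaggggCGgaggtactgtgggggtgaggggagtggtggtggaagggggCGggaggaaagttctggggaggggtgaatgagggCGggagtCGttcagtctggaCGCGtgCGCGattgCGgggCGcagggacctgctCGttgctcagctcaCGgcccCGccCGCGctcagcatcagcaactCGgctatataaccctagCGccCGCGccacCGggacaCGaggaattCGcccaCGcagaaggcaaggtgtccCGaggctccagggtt
Foxa1, chr12:57546062-57546361, minus strand: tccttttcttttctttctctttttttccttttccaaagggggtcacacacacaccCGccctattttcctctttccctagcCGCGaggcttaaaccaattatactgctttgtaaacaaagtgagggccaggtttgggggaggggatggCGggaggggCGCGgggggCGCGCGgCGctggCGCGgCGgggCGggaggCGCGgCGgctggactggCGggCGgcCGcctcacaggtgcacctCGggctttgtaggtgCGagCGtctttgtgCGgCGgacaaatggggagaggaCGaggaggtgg
Neurog1, chr13:56252131-56252430, minus strand: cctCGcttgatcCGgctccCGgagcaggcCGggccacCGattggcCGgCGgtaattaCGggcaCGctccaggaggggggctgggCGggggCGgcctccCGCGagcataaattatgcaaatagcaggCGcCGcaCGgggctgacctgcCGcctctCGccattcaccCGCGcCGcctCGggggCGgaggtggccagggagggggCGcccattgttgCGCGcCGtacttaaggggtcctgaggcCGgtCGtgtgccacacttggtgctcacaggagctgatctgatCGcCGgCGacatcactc
Neurog2, chr3:127632886-127633185, plus strand: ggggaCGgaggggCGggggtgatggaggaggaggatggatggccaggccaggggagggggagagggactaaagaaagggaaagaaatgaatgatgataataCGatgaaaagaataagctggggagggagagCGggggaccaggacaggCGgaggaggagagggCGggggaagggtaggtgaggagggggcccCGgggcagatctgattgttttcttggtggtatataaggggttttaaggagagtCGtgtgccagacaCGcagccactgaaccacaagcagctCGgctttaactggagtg

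Most of these promoters were rich in CpG. The Gata2 window printed above held 29 CpG sites in 300 bases, and the window at its upstream start held 32. Neurod1 and Foxa1 held 26 each, Neurog1 held 32 and Gata3 held 22. The 3 Foxa2 windows held 12, 13 and 23, and Neurog2 had the fewest, 10. The median over the 10 windows was 24.5, against 13 over all windows, whose quartiles were 4 and 25. All 4 windows of Gata2, Neurod1 and Foxa1 were above the upper quartile, but so was Neurog1, which had no domain in its body. Over all protein-coding genes, windows that met a domain had a median of 8 CpG sites and the others 13.

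**Figure D1:**
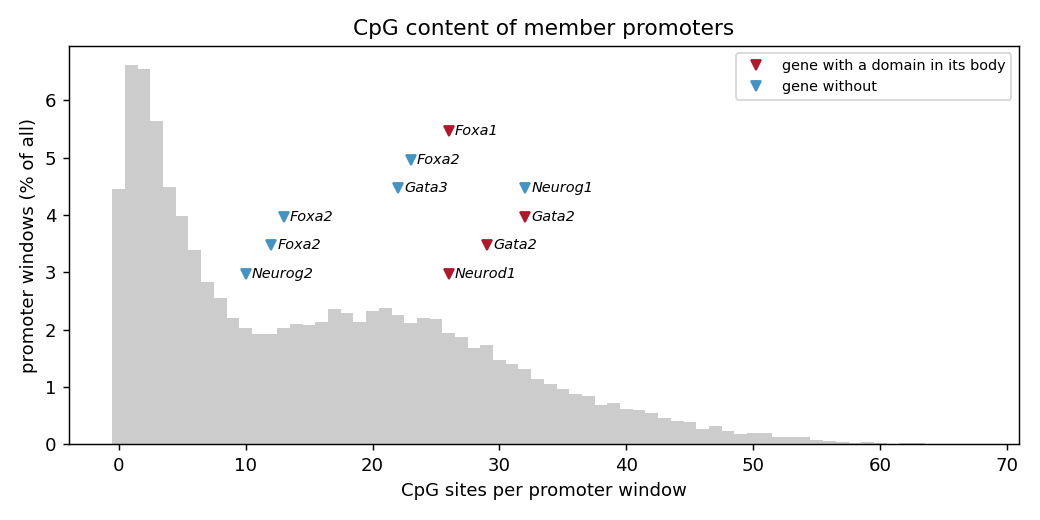
CpG sites per 300-base promoter window (x axis) against the share of the 21045 windows of protein-coding genes in percent (grey bars). Triangles mark the 10 windows of 7 lineage factor genes, in red for genes with a domain in the body and blue for the others, and their height has no meaning. The red triangles stand at 26 to 32 CpG sites and the blue ones at 10 to 32.

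Of the 10 genes, 4 had a listed domain inside the body: Gata2, Gata4, Foxa1 and Neurod1. These genes were picked with that count known, so nothing is read from it. A domain here is an interval in the authors' list, and without signal or input the list does not show that these narrow intervals are H4K20me3 at the gene's own locus. Among all protein-coding genes, 14.1% (3044 of 21523) had at least 1 domain base in the body, and among those within the members' range of body length, 1.70 to 72.8 kb, 8.57% did. The 4 genes held 6 domains that covered 5.55 kb, and every one of the 6 lay wholly inside its gene, as was so for all body domains in 82.9% of the 3044 genes. With the 50 kb flanks included, 5 of the 10 genes met a domain, the fifth being Sox17. That is near the 55.8% of all protein-coding genes (12012) and the 50.0% of those in the same length range.

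**Figure D2:**
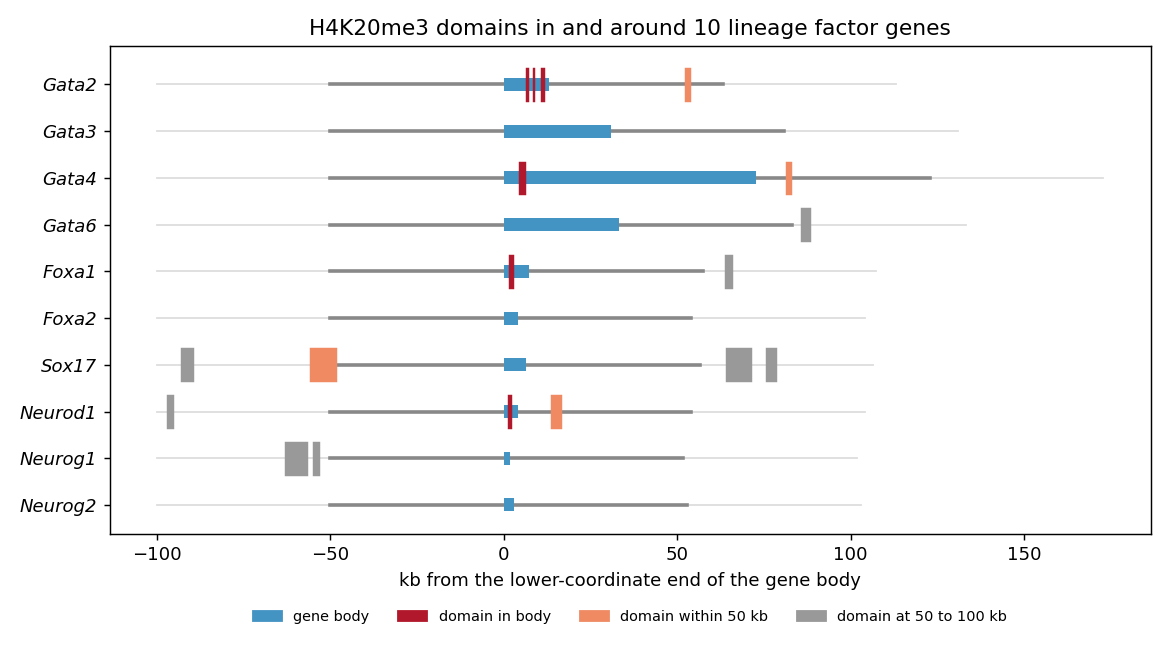
Map of the 10 genes, drawn from the lower-coordinate end of each gene body (x axis, kb). Blue bars are gene bodies, the dark line spans the 50 kb flanks, the pale line spans 100 kb, and blocks with a thin outline are domains: red in the body, orange within 50 kb, grey at 50 to 100 kb. Red blocks appear in Gata2 (3), Gata4, Foxa1 and Neurod1 (1 each), and Gata3, Foxa2 and Neurog2 have no block within 100 kb.

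Gata2, a GATA factor of blood stem cells, trophoblast and some neurons, carried the most domains. Its body on the plus strand of chromosome 6 (88193891 to 88207032, 13.1 kb) contained 3 domains. The first, 0.750 kb wide, ran from 88200151 to 88200900. The second, 0.300 kb wide, ran from 88202401 to 88202700, and the third, 1.05 kb wide, from 88204501 to 88205550. Together they covered 2.10 kb, or 15.98% of the body. All 3 lay downstream of both transcript starts with a promoter window. The first began 1.49 kb past the downstream transcript start and 6.26 kb past the upstream one, and the last ended 1.48 kb before the end of the body. The gaps between them were 1.50 and 1.80 kb, while the next domain on the lower side was 144.9 kb away and that on the higher side 40.7 kb away. For comparison, the median gap between neighbouring domains in the list was 39.2 kb. The middle domain is among the narrowest of all, since only 0.454% of domains (128) are as narrow.

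As listed, few genes this short held several separate domains. Of 4440 other protein-coding genes within 1.5 times of the length of Gata2, 258 (5.81%) had a domain in the body and 0 had 3 or more. Of 9120 protein-coding genes no longer than Gata2, 1 had 3 or more, and that was Gata2 itself. Of the 514 protein-coding genes of any length with at least 3 (16.9% of those with a body domain), it was also the 1 gene (0.195%) in which none was wider than 1.05 kb. These limits were taken from Gata2 after its values were seen, so the counts describe where it stands and are no test. They rest on the split into 3 calls: with domains closer than 5 kb joined, Gata2 had 1 body domain, like Gata4, Foxa1 and Neurod1.

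Gata4, a GATA factor of heart and of primitive and definitive endoderm, had 1 domain in the body and 1 close by. The gene is the longest of the 10 (chromosome 14, 63198914 to 63271712, 72.8 kb), and its domain at 63203251 to 63204900 was 1.65 kb wide, the widest found in a member body. It covered 2.27% of the gene and began 4.34 kb from the lower-coordinate end. A second domain, at 63280351 to 63281850 (1.50 kb), stood 8.64 kb beyond the higher-coordinate end and overlapped no annotated gene. Of protein-coding genes of like length, 23.8% (691 of 2898) had a domain in the body, so for Gata4 a body domain is common for its length.

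Foxa1, a forkhead factor of endoderm-derived organs, had 1 domain and an otherwise empty window. The gene lies on the minus strand of chromosome 12 (57540628 to 57548029, 7.40 kb), and the domain at 57542101 to 57543150 was 1.05 kb wide, 14.2% of the body. It began 2.96 kb past the start for which a promoter window was at hand, 57546111, and ended 4.01 kb past it. That start lies inside the body, whose upstream end was 4.88 kb from the domain. The next domains were 495.9 kb away on the lower side and 61.2 kb away on the higher side. Of protein-coding genes of like length, 3.49% (122 of 3491) had a body domain. The neighbouring gene Ttc6 overlaps the upstream end of the Foxa1 body and had 3 domains of its own. The closest of them to Foxa1, at 57604351 to 57606300, lay 56.3 kb beyond Foxa1 and so outside its flank.

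Neurod1, a bHLH factor of neurons and of pancreatic endocrine cells, had the largest covered share of the 10 with domains as listed, ahead of Gata2, which is ahead once domains closer than 5 kb are joined. Its body on the minus strand of chromosome 2 (79452637 to 79456636, 4.00 kb) held 1 domain at 79453951 to 79454700, 0.750 kb wide, or 18.75% of the gene. The domain began 1.94 kb past the transcript start and ended 2.69 kb past it, so the first part of the gene was free. Upstream of the start, at 79466101 to 79469250, a domain of 3.15 kb lay 9.46 kb away and overlapped no annotated gene. It was the nearest flank domain to a bHLH member. Of protein-coding genes of like length, 2.94% (75 of 2548) had a body domain.

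**Figure D3:**
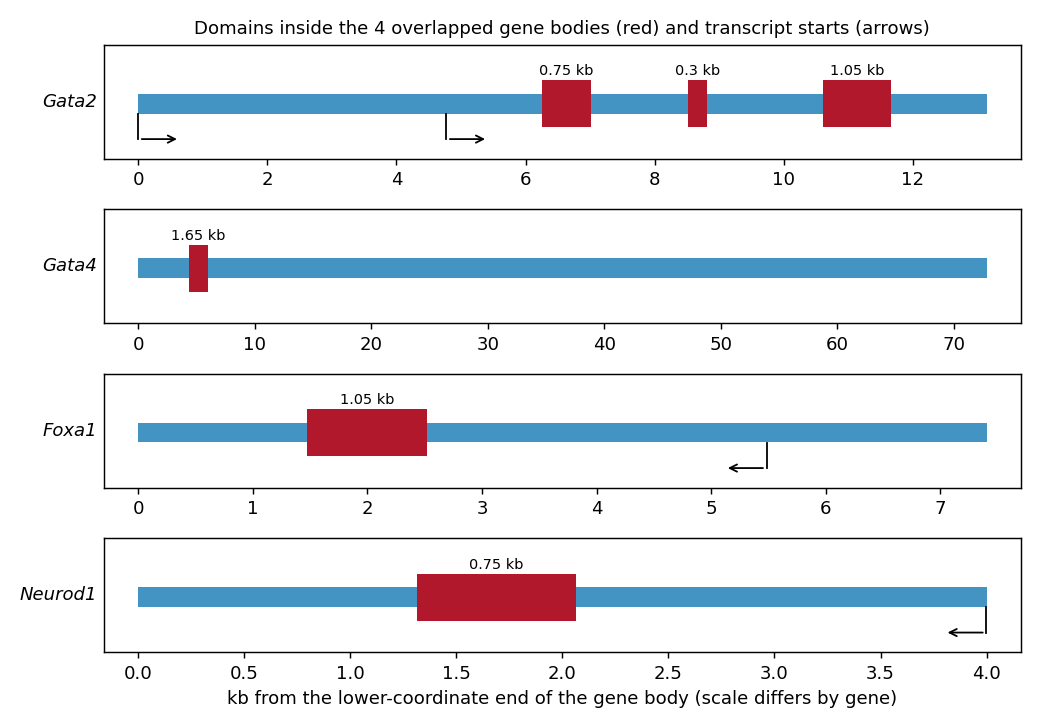
The 4 gene bodies that held a domain, each on its own scale (x axis, kb from the lower-coordinate end). Red blocks are domains with their width in kb, and arrows are transcript starts and their direction, where the promoter table gives them. In Gata2, Foxa1 and Neurod1 each block begins at least 1.49 kb past the nearest start before it.

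The 6 body domains were narrow. Their widths ran from 0.300 to 1.65 kb with a median of 0.900 kb, against 3.00 kb for all domains in the list, with quartiles of 1.80 and 4.80 kb. All 6 were thus below the lower quartile. Domains wholly inside a protein-coding gene were 5127 in number, with a median of 2.70 kb, and 29.1% of them were no wider than 1.65 kb. Of the 3044 protein-coding genes with a body domain, 666 (21.9%) had none wider than that. The 1.65 kb limit was taken from the widest member domain, so the 4 members meet it by construction. When only domains of at least the median width were kept, 0 of the 10 genes had one in the body (all protein-coding genes: 8.42%), and 2, Sox17 and Neurod1, had one in the body or flanks (37.2%). When only narrower domains were kept, 4 had one in the body (8.87%) and the same number in the body or flanks (38.3%). With domains closer than 5 kb joined, the 3 of Gata2 became 1 of 5.40 kb, from 88200151 to 88205550, which is 41.1% of the body. The annotation used gives no exons, so whether these intervals are exonic or intronic is not stated. Inputs of the same samples are not used here. Whether the intervals coincide with coding exons, stand out in input, or hold reads from another copy of the sequence, such as a cDNA or plasmid, was not tested, so the 4 genes cannot be called H4K20me3-marked from the list alone.

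**Figure D4:**
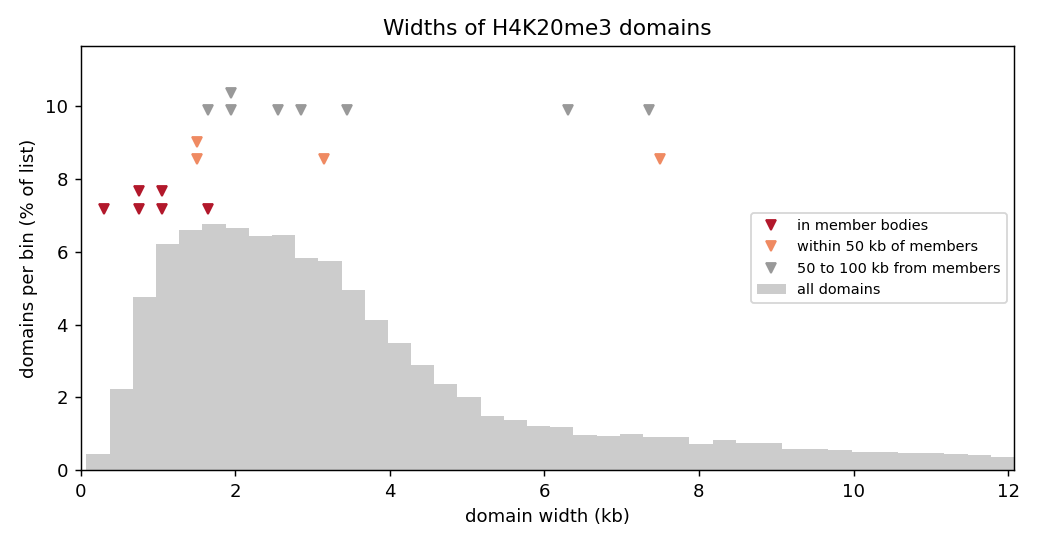
Domain width (x axis, kb, bins of 0.3 kb) against the share of all 28210 domains in percent (grey bars). The 4.05% of domains wider than 12.1 kb are not drawn. Triangles mark the domains in member bodies (red, 0.300 to 1.65 kb), within 50 kb (orange, 1.50 to 7.50 kb) and at 50 to 100 kb (grey, 1.65 to 7.35 kb), stacked where widths are equal, and their height has no meaning.

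The flanks held 4 domains in all, 1 each at Gata2, Gata4, Neurod1 and Sox17. That of Gata2, at 88246201 to 88247700 (1.50 kb), stood 39.2 kb past the end of the gene. Sox17, on chromosome 1 (4490928 to 4497426, 6.50 kb), had none in the body but a domain of 7.50 kb at 4435051 to 4442550, whose near edge was 48.4 kb away. It is the widest of the 18 domains within 100 kb of any member. Only 1.62 kb of it fell inside the 50 kb limit. On the other side of Sox17, domains of 7.35 and 2.85 kb stood 57.5 and 69.2 kb away, both over the long noncoding RNA gene Gm37323. None of the 4 flank domains overlapped a protein-coding gene.

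The 50 kb limit ran through the middle of the members' distances. Just inside it was Sox17 at 48.4 kb. Just outside were Gata6 at 52.5 kb and Neurog1 at 53.3 kb, and the domain beyond Foxa1 at 56.3 kb. Gata6, the GATA factor that drives primitive endoderm (chromosome 18, 11052510 to 11085636, 33.1 kb), had its nearest domain at 11138101 to 11140650 (2.55 kb). Neurog1, a bHLH factor of sensory neurons (chromosome 13, 56250478 to 56252180, 1.70 kb), had a pair of domains on its lower side, of 1.65 kb at 56195551 to 56197200 and of 6.30 kb at 56187301 to 56193600. With a flank of 100 kb, 7 of the 10 genes met a domain, where all protein-coding genes gave 71.9%. With flanks of 10 or 25 kb, 4 did, where all protein-coding genes gave 27.4% and 41.5%.

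The other 3 genes were far from any domain. Gata3, a GATA factor of trophoblast and T cells (chromosome 2, 9857078 to 9887953, 30.9 kb), had its nearest domain 180.3 kb away, at 9674551 to 9676800 (2.25 kb). Foxa2, a forkhead factor of definitive endoderm and the floor plate (chromosome 2, 148042877 to 148046969, 4.09 kb), had its nearest 297.1 kb away, at 147742201 to 147745800 (3.60 kb). Neurog2, a bHLH factor of cortical progenitors and motor neurons (chromosome 3, 127632733 to 127635636, 2.90 kb), had its nearest 489.3 kb away, at 127140001 to 127143450 (3.45 kb), and the one on its other side was 501.6 kb away. Of all protein-coding genes, 16.2% lay at least as far as Gata3 from the nearest domain outside the body, 7.16% at least as far as Foxa2 and 2.26% at least as far as Neurog2. The median distance of the 6 members without a body domain was 116.8 kb, against 53.0 kb for all protein-coding genes without one. For all 10 members, counting only domains outside the body, the median was 52.9 kb, close to the 48.4 kb of all protein-coding genes.

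**Figure D5:**
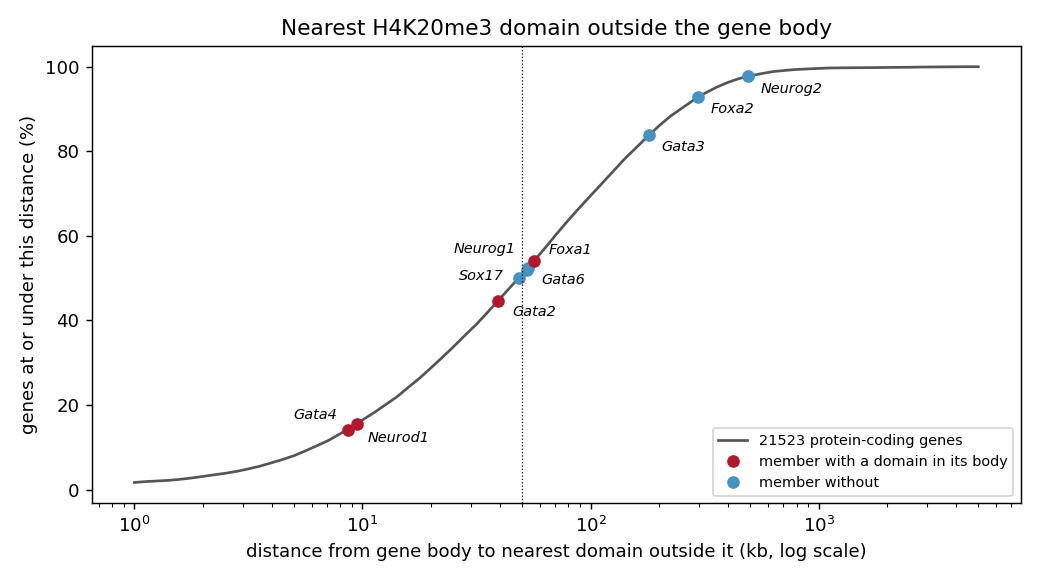
Distance from the gene body to the nearest domain outside it (x axis, kb, log scale) against the percentage of 21523 protein-coding genes at or under that distance (grey line). Points are the 10 genes, red with and blue without a domain in the body, placed on the line by their own distance, and the dotted line is 50 kb. Gata4 and Neurod1 lie below 10 kb, 5 genes lie between 39.2 and 56.3 kb, and Gata3, Foxa2 and Neurog2 lie at 180.3 to 489.3 kb.

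Close relatives among the members differed in domain overlap. They were picked with that overlap known, so nothing is read from the split. Of all protein-coding genes, 14.1% had a body domain. Gata2 and Gata4 had body domains while Gata3 and Gata6 had none, Foxa1 had one and Foxa2 none, and Neurod1 had one while Neurog1 and Neurog2 had none. Domain counts over the body and 500 kb on either side, body domains included, differed too. Sox17 had 24 domains there (23.8 per Mb) and 7.21% of the sequence covered, Gata2 had 14 (13.8 per Mb), and Foxa1 and Neurod1 had 10 each. Gata3, Gata4, Foxa2 and Neurog1 had 5 each, Gata6 had 4 and Neurog2 had 1. The median over all protein-coding genes was 6.98 per Mb and over the 10 members 4.99 per Mb. Sox17 thus had the most domains in this span but none in its body. Gata4 had the same count as Gata3, with its own body domain included in that count.

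The nearest protein-coding neighbours of the 4 overlapped genes differed in whether they had a body domain, which 14.1% of all protein-coding genes had. Dnajb8, 15.2 kb from Gata2, and Neil2, 4.76 kb from Gata4, had no domain. Cerkl, 23.6 kb from Neurod1, had 2 domains over 2.13% of its 96.5 kb, and Ttc6 had 3 over 2.51% of its 191.2 kb. Of the neighbours of the other members, Rp1 beside Sox17 had 11 domains (8.23% of its body), while Taf3 beside Gata3, Mib1 beside Gata6, Sstr4 beside Foxa2, Cxcl14 beside Neurog1 and Zgrf1 beside Neurog2 had none.

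Other genes of the same families and fates were looked up in the same way. Of 61 genes in 5 comparison lists, each counted once, 2 (3.28%) had a body domain and 21 (34.4%) had one in the body or 50 kb flanks, beside 14.1% and 55.8% of all protein-coding genes. The 61 were shorter, with a median body of 8.04 kb against 17.4 kb, and the shares among other protein-coding genes of like length, averaged over the 61, were 9.19% and 50.6%. Whether the lists differ from these shares was not tested. None of the 9 family paralogs, such as Gata1, Gata5, Foxa3 and Neurog3, had a body domain, and none of the 10 trophoblast factors or the 19 neuronal factors counted here did. The 1 of 15 endoderm factors with one was Hnf4a, a nuclear receptor of liver and gut, with 0.750 kb covered. The 1 of 10 blood factors with one was Cebpa, a leucine zipper factor of myeloid cells and liver, with 1.20 kb (45.5% of a 2.64 kb body). Both had 1 domain, wholly inside the body and, like those of the members, narrower than the lower quartile of the list. The domain of Cebpa, at 35119351 to 35120550 on chromosome 7, began 0.0580 kb past the transcript start. That of Hnf4a, at 163514251 to 163515000 on chromosome 2, began 7.39 kb past the nearest start before it.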

How the data were processed

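H4K20me3 ChIP-seq libraries were made from dTKO mouse ES cells, 3 at each of 4 times. Bowtie2 2.3.4.1, SAMtools 1.1, deepTools and bedtools and the builds mm10, dm6, mm9 and GRCm38 are named per the submitters' processing notes. The deposited file has 3 columns (chromosome, start, end), and its domains were called by the authors with RSEG, per the file name. The sources used here do not say which libraries entered or at what threshold. The 3 columns name no build, and the domain coordinates were taken to be mm10, on which every overlap and distance here depends. Boundaries fall on a grid of 150 bases, which sets the precision of widths and distances.

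Genes, bodies and promoter windows came from RefSeq tables of GRCm38.p6. Genes on chromosomes 1 to 19 and X that start after the first 3 Mb were used. A gene counted as overlapped at 1 base or more. Distances run from the body to the nearest domain edge, and genes of like length are within 1.5 times. Counts within 500 kb cover the body and 500 kb on either side. Named were the 10 members, their nearest protein-coding neighbours, protein-coding genes under flank domains, and up to 4 overlapped genes per comparison list. One gene of the neuronal list is not reported here and enters no count of the lists. The members and lists were chosen with earlier results of these data known. Gm37323 and the protein-coding genes under more distant domains were named after their values were seen. The overlap count was tested on simulated data, with 0 differences in 400 genes. Python 3.11.15, numpy 2.4.6, pandas 2.3.3 and matplotlib 3.10.9 were used.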

Additional observations from a re-analysis of the deposited data

How the results depend on the processing

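The count of 4 genes with a body domain held when domains closer than 5 kb were joined (all protein-coding genes: 14.2%). It also held when domains at the first base of a chromosome were left out (14.1%) and when 600 bases of overlap were required (13.4%). In a setting chosen after seeing the data, with domains under the median width only, it held as well (8.87%). The count fell to 0 once narrower domains than the median were dropped (8.42%). There the count with flanks was 2 in place of 5 (all protein-coding genes: 37.2%), and the covered sequence 0 kb in place of 5.55 kb. The median distance of the 6 genes without a body domain was then 216.0 kb in place of 116.8 kb. That setting removes the narrow domains by construction. Joining raised the covered sequence to 8.85 kb, and the whole rise was in Gata2, from 2.10 to 5.40 kb. With flanks of 10 or 25 kb, 4 genes met a domain (all protein-coding genes: 27.4% and 41.5%). With 100 kb 7 did (71.9%), and with only the narrow domains and 50 kb flanks 4 did (38.3%). The share of background genes with a body domain was 14.1% for protein-coding genes, 11.9% for all annotated genes and 8.57% in the members' length range. No paired analysis was possible because the list names no sample or replicate. For the same reason no replicate could be left out, and the depth behind a domain is unknown.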
